A study of Mus musculus with 6 samples.

Results

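The receptors and ligands of the BAFF and APRIL system were read in peritoneal cavity (PC) B1a cells on 6 single-colour Agilent mouse arrays. The genes were the 3 receptors *Tnfrsf13b* (TACI), *Tnfrsf13c* (BAFF-R) and *Tnfrsf17* (BCMA) and the 2 ligands *Tnfsf13* (APRIL) and *Tnfsf13b* (BAFF). Their probes were chosen by the gene name that the array files give, whatever the measured values. This found 7 of the 55681 probes on the array, for 4 of the 5 genes, since no probe carried the name *Tnfsf13*. The study compared B1a cells of *p40-/-CD25-/-* mice, called knockout here, with those of *p40-/-CD25+/-* controls that keep 1 functional copy of CD25, the α chain of the IL-2 receptor (IL-2Rα), with 3 arrays of each. Both genotypes lack p40, the subunit that IL-12 and IL-23 share, so that no array represents cells of an unmodified mouse. All mice were C57Bl/6 females aged 7 weeks, each sample pooled at least 3 mice, and CD25 was absent from every cell type of the knockout mice, which develop autoimmune cholangitis, not from B cells alone. B1a cells were sorted as B cells that carry CD11b and CD5.

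BAFF and APRIL are ligands of the tumour necrosis factor family. Myeloid and stromal cells make most BAFF, which exists at the cell surface and as a soluble trimer released by furin-type cleavage. BAFF-R binds BAFF alone and carries the main survival signal of conventional B cells, through TRAF3 release, NIK and the alternative NF-κB pathway. TACI binds both ligands, is abundant on innate-like B cells such as B1 and marginal zone cells, and takes part in class switching and T-independent antibody responses. BCMA binds mainly APRIL and belongs to plasma cells. B1 cells depend less on BAFF for survival than conventional B2 cells do.

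Several of the 7 probes read different stretches of the same receptor, which matters for the results. The files place 1 *Tnfrsf13b* probe at base 175 of its transcript (chr11:60954823-60954882, plus strand, mm9, NM_021349), 1 at base 408 (chr11:60960405-60960464, NM_021349) and 1 at base 2451 of another transcript model (chr11:60962770-60962829, ENSMUST00000010286). *Tnfrsf13c* had a probe at base 91 (chr15:82054616-82054675, minus strand, NM_028075) and a probe at base 1817 (chr15:82052203-82052262). The upstream probes lie in coding sequence, and their 60 bases show what part of the receptor each one reads. They are printed 5′ to 3′ as the array files hold them, with cysteine codons of the receptor's reading frame in capitals, because paired cysteines build the small ligand-binding modules of these receptors:
Tnfrsf13b, base 175: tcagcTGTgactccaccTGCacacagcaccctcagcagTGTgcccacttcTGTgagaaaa
Tnfrsf13b, base 408: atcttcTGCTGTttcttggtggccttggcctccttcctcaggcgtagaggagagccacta
Tnfrsf13c, base 91: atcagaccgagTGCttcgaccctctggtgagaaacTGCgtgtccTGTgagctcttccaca
The *Tnfrsf13b* probe at base 175 holds 4 cysteine codons of the ligand-binding part of TACI, and the *Tnfrsf13c* probe at base 91 holds 3 of the ligand-binding part of BAFF-R. The *Tnfrsf13b* probe at base 408 holds 2 adjacent cysteine codons within the membrane-spanning part. The downstream probes of both genes were 35% G and C, against 55% in the 3 upstream probes.

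Values are log2 of the processed intensity relative to the 75th percentile of the same array, so that 0 is the 75th percentile and 1 unit is 2-fold. A probe was tested where it stood well above background, by the scanner software's own mark, on all 3 arrays of at least 1 genotype. The knockout arrays were dimmer: the 75th percentile of processed intensity was between 66.5 and 162 on them and between 252 and 272 on the control arrays, and the share of spots well above background was 39.7 to 45.9% against 47.2 to 50.6%. The lowest value still well above background was therefore higher on the knockout arrays (-3.67 to -2.40) than on the control arrays (-4.48 to -3.98), which bears on the dim ligand probes. *Il2ra*, which encodes CD25, stood at 1.62, 1.13 and 1.35 on the control arrays and at -0.31, -0.59 and 0.86 on the knockout arrays, with no overlap (log2 difference -1.38, limma adjusted p = 0.119), and all 6 arrays marked its probe as well above background. The same held for *Il12b*, the p40 gene that neither genotype should have, with a difference of -0.02. Whether these probes lie in the deleted parts is not given in the sources used here. All 7 B cell markers, among them *Cd79a*, and all 7 B1a markers, among them *Cd5* and *Itgam* (CD11b), were well above background on all 6 arrays. Summed linear levels were 1162 to 1204 against 1200 to 1421 for B cells and 237 to 273 against 224 to 253 for B1a cells (control against knockout). The B1a sum was mostly *Zbtb32* (mean 7.31 in controls and 7.14 in knockouts). Of the 7 B1a markers, *Itgam* (0.79) and *Bhlhe41* (0.55) were higher in knockouts without overlap, and *Cd9* (-0.48) and *Ctla4* (-0.44) lower. Without overlap, 15.6% of all tested probes were higher and 19.6% lower. By limma, 0 of the 7 had an adjusted p under 0.05 (0.0657% of all genes).

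TACI and BAFF-R were both well above background on all 6 arrays at every one of their 5 probes, and neither receptor passed the test between genotypes. With limma, 0 of these 5 probes had an adjusted p under 0.05, where 0.0808% of all 24751 tested probes did, and the methods' t-test gave 0 as well. None passed the study's 2-fold thresholds, a 2-fold difference with an unadjusted p of at most 0.05, read here with the limma p. Of all tested probes 3.63% passed these (2.38% higher and 1.25% lower in knockouts). With the p of the methods' t-test, 0 of the 5 probes and 611 of all 24751 passed them. The unadjusted p alone was at most 0.05 at 1 of 5 probes, against 24.5% of all tested probes. The groups did not overlap at 1 of 5 probes, against 35.2% of all tested probes (15.6% higher and 19.6% lower). A difference in receptor RNA per cell and one in the share of cells carrying it cannot be told apart in these bulk samples.

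**Figure D1:**
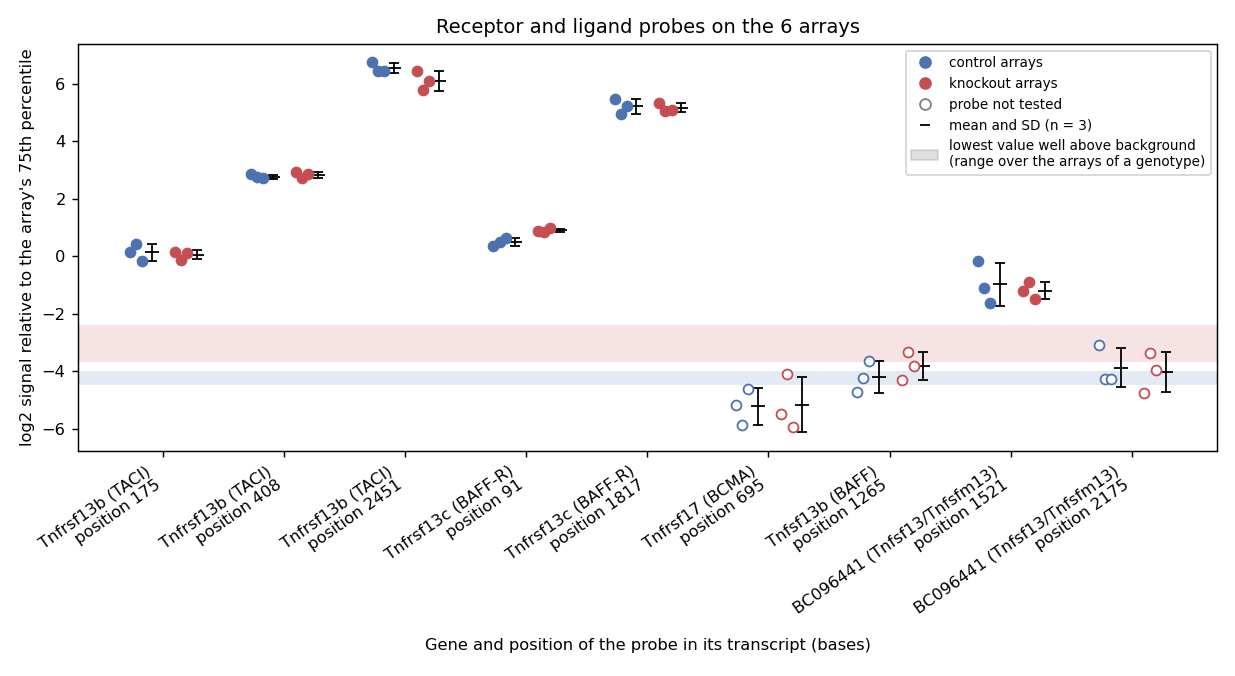
Log2 signal relative to the 75th percentile of each array (vertical axis) for every probe of the receptors and ligands and for the pair of probes that match APRIL by accession (horizontal axis, by base of the transcript). Points are arrays (blue control, red knockout; open where the probe was not tested), black marks are the mean and SD of 3 arrays, and the shaded bands give the range of the lowest value well above background in each genotype. The TACI and BAFF-R probes lie far above the bands, and the BCMA and BAFF probes lie inside or below them or between them.

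TACI, the receptor of both ligands, gave 3 readings. At base 2451 the control arrays stood at 6.74, 6.45 and 6.43 and the knockout arrays at 6.44, 5.77 and 6.09. Knockout arrays 2 and 3 lay below all controls, while knockout 1 lay level with control 3, so the groups overlapped by a narrow margin. The means were 6.54 ± 0.18 and 6.10 ± 0.34 (SD, n = 3), a log2 difference of -0.44 (SE 0.21, 95% interval -0.93 to 0.05), or 1.36-fold lower, with a limma p of 0.072 and an adjusted p of 0.235. Probes of like level, those within 0.5 log2 of its mean, had a median difference of -0.10 over 524 probes. Under a background model called normexp with the same scaling, this difference was -0.78 with an adjusted p of 0.0165, a setting under which 37.7% of all tested probes passed.

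The probe in the ligand-binding part of TACI showed no such separation. At base 175 the control arrays stood at 0.14, 0.44 and -0.16 and the knockout arrays at 0.16, -0.13 and 0.11. Every knockout value lay inside the span of the controls. Their log2 difference was -0.10 (SE 0.19, 95% interval -0.55 to 0.36, adjusted p = 0.765), and its sign turned with array weights (0.14) and without control 2 (0.06). At base 408 the values were 2.85, 2.74 and 2.72 in controls and 2.92, 2.73 and 2.85 in knockouts. The arrays of each genotype lay close together, with SDs of 0.07 and 0.10, and the groups overlapped. The log2 difference was 0.06 (95% interval -0.27 to 0.39, adjusted p = 0.793), and it turned to -0.20 with normexp and the same scaling. As folds of the control level, the 95% interval ran from 0.831 to 1.31 at this probe and from 0.525 to 1.04 at base 2451.

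BAFF-R, the receptor of BAFF alone, gave 2 readings. At base 91, in the ligand-binding part, the control arrays stood at 0.36, 0.51 and 0.65 and the knockout arrays at 0.88, 0.84 and 0.97. Every knockout array lay above every control array. The means were 0.50 ± 0.14 and 0.90 ± 0.07 (SD, n = 3), a log2 difference of 0.39 (SE 0.15, 95% interval 0.05 to 0.74), or 1.31-fold higher. The limma p was 0.0301 and the adjusted p 0.17, so the difference did not pass the test over all probes. Probes of like level had a median difference of -0.13 over 2794 probes. The difference stayed between 0.22 and 0.49 under all 18 alternative settings run, with adjusted p from 0.103 to 0.361.

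The downstream probe of BAFF-R, the brighter of the pair, did not separate the genotypes. At base 1817 the values were 5.46, 4.94 and 5.23 in controls and 5.34, 5.06 and 5.09 in knockouts. Every knockout array lay between the lowest and the highest control array. The log2 difference was -0.05 (SE 0.18, 95% interval -0.47 to 0.38, adjusted p = 0.885), and it had the opposite sign in 7 of 19 alternative settings, including quantile normalization (0.13).

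**Figure D2:**
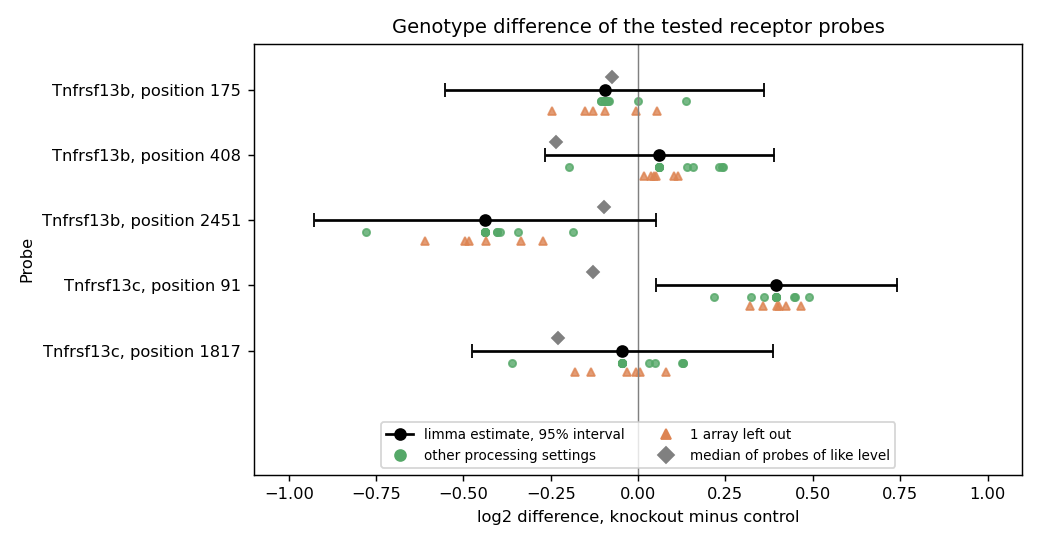
Log2 difference, knockout minus control (horizontal axis), for the 5 tested receptor probes (vertical axis). Black points and bars are the limma estimate and its 95% interval (3 arrays per genotype), green points other processing settings, orange triangles the value with 1 array left out and grey diamonds the median of probes of like level. The interval at base 91 of *Tnfrsf13c* lies above 0, and the other 4 include 0.

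In both receptors the upstream probe had a higher mean ratio to the downstream probe in knockouts, a reading that needs no scaling between arrays because both probes lie on the same array. It was computed after the values above had been seen. For TACI, log2 of the base 408 probe over the base 2451 probe was -3.89, -3.71 and -3.71 in controls and -3.53, -3.04 and -3.24 in knockouts. All knockout arrays lay above all control arrays, by 0.50 in the mean. The exact two-sided permutation p was 0.1, the smallest that 3 against 3 arrays allow, and 0.267 adjusted over the 4 pairs. In 26.1% of 3622 genes read by their outermost probes, the knockout arrays lay higher without overlap. The outermost probes of TACI are those at bases 175 and 2451, whose groups overlapped, so that share does not cover this pair. For BAFF-R, the base 91 probe over the base 1817 probe was -5.10, -4.43 and -4.59 in controls and -4.46, -4.22 and -4.12 in knockouts. Knockout 1 fell just below control 2 here, so the groups overlapped, with a mean difference of 0.44 (exact permutation p = 0.2, limma adjusted p = 0.215). The base 175 probe of TACI over the base 2451 probe differed by 0.34 (exact permutation p = 0.2, limma adjusted p = 0.335), and the base 175 probe over the base 408 probe by -0.16 (exact permutation p = 0.5).

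The same ratio differed between genotypes across the whole array. Over 3622 genes with at least 2 probes well above background on all 6 arrays, the median of the upstream over the downstream probe was -0.80, -0.73 and -0.76 on control arrays and -0.61, -0.54 and -0.65 on knockout arrays. The knockout arrays lay higher than the control arrays without overlap. The ratio was higher in knockouts in 66.3% of these genes, with a median difference of 0.12 and an interquartile range from -0.07 to 0.41, and 7.98% had a limma adjusted p under 0.05. In that distribution the BAFF-R ratio lay at percentile 77.1 and the TACI ratio of bases 175 and 2451 at percentile 71.4. The part of this array-wide shift in the receptor ratios was not tested.

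**Figure D3:**
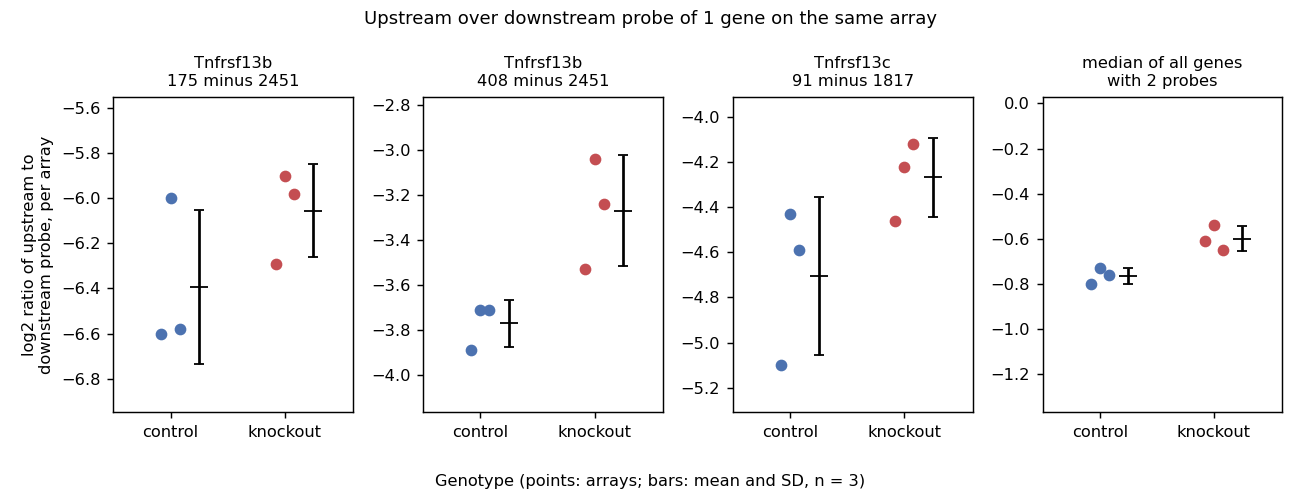
Log2 ratio of an upstream to a downstream probe of the same gene on each array (vertical axis, each panel spanning 1.4 log2 units) in control and knockout arrays (horizontal axis). Points are arrays, bars the mean and SD (n = 3), and the panel at the right gives the median over 3622 genes. Knockout arrays lie higher in each panel mean, without overlap for bases 408 and 2451 of *Tnfrsf13b* and for the median of all genes.

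BCMA, the receptor of plasma cells, was at background. Its probe (*Tnfrsf17*, base 695 of NM_011608, chr16:11320045-11320104, plus strand) read -5.16, -5.88 and -4.62 on control arrays and -5.47, -4.09 and -5.92 on knockout arrays and was well above background on 0 of 6 arrays. No fold is given, since both genotypes were below the level that this array resolves. Genes of plasma cells, where BCMA belongs, were measured beside it. Of the 5 listed, 4 were measured in both genotypes, and all 4 had lower values in knockouts, as 60.2% of all 18252 genes did. Their median log2 difference was -0.50, against -0.12 over all genes, and it kept its sign under the 5 other scalings. Of the 4, 1 passed the 2-fold thresholds (3.54% of all genes), *Igj*, the joining chain of secreted IgM and IgA, with a log2 difference of -1.92 (adjusted p = 0.133). *Xbp1*, the secretory factor, lay lower without overlap (-0.52, adjusted p = 0.157). *Sdc1*, which encodes CD138 and also binds APRIL through heparan sulfate, was well above background on all control arrays and no knockout array, and no fold is given because the knockout arrays resolve only brighter signals. The summed linear level of all 5 was 68.6 to 75.6 on control arrays and 46.6 to 59.5 on knockout arrays. That sum was mostly *Xbp1* (mean 5.34 in controls and 4.81 in knockouts) and *Irf4* (4.61 and 4.31). The groups of *Irf4* overlapped (-0.30, limma adjusted p = 0.289). The relation of the sum to the receptor readings was not tested.

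The BAFF ligand was at or close to background in these sorted B cells. Its probe (*Tnfsf13b*, base 1265 of NM_033622, chr8:10035561-10035620, plus strand) read -4.73, -4.22 and -3.63 on control arrays and -4.31, -3.32 and -3.83 on knockout arrays. It was well above background on controls 2 and 3 and on no knockout array, and the values overlapped. On each knockout array the reading lay below the lowest value well above background of that array, so the probe was not tested and no fold is given.

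APRIL had no probe under its own name. A pair of probes named BC096441 list the *Tnfsf13* transcript among their accessions, together with *Tnfsfm13*, the read-through transcript that joins *Tnfsf12* (TWEAK) to *Tnfsf13*, and cannot tell the transcripts apart. They were read beside the named genes and are not counted with them. At base 1521 (chr11:69496733-69496792, minus strand) the values were -0.16, -1.11 and -1.63 in controls and -1.19, -0.91 and -1.47 in knockouts. All 6 arrays marked this signal as well above background, and the groups overlapped (log2 difference -0.22, SE 0.36, 95% interval -1.07 to 0.63, adjusted p = 0.703). At base 2175 (chr11:69496079-69496138) the values were -3.10, -4.27 and -4.27 in controls and -4.76, -3.38 and -3.94 in knockouts, well above background on 2 of 3 control arrays and on no knockout array. *Tnfsf12*, which encodes TWEAK and lies next to *Tnfsf13*, stood at 0.52, 0.34 and 0.54 in controls and at 0.88, 1.05 and 0.73 in knockouts at base 1034 (chr11:69500342-69500401). Its groups did not overlap, and the log2 difference was 0.42 (1.34-fold higher, SE 0.16, limma adjusted p = 0.167). Its other probe, at base 848, was well above background on 1 of 6 arrays and was not tested.

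Other cell types that the sort could hold, among them those that make BAFF or APRIL, were looked for by their markers. Of 10 macrophage genes 8 were tested, with a median difference of -0.18 and a summed level of 87.1 to 120 against 78.4 to 114 (control against knockout). That sum was mostly *Icam2*, an adhesion molecule that other cells carry too, at 6.45, 6.17 and 6.15 in controls and 5.99, 6.16 and 6.15 in knockouts. Values were lower for 7 of the 8 at their brightest probes, where 60.2% of all genes were lower. Other probes turned the sign for *Csf1r* (-0.31 at its brightest, 0.39 and 0.63 at its others) and for *Emr1* (-0.16 and 0.13). The 2-fold thresholds were passed by 1 (3.54% of all genes), *Lyz2*, which encodes lysozyme. Its difference was -1.08 with overlapping groups (limma adjusted p = 0.164), and it lay between -1.18 and -0.86 over 6 scalings. *Marco*, a scavenger receptor, had the opposite sign (0.92), with its highest value on knockout 2. Of 6 dendritic cell genes only *Siglech* was tested, *Xcr1* and *Clec9a*, which mark cross-presenting dendritic cells, were above background on no array, and *Flt3*, *Zbtb46* and *Itgax* were above it on some arrays without reaching the test. The summed level, 61.3 to 66.6 against 72.1 to 127, was almost all *Siglech*, at 6.00, 6.05 and 5.93 in controls and 6.33, 6.99 and 6.17 in knockouts, with its highest value on knockout 2. Of 7 granulocyte genes 3 were tested, with a summed level of 109 to 118 against 116 to 224. That sum was mostly *Csf3r*, the receptor of the growth factor G-CSF, at 6.80, 6.87 and 6.76 in controls and 7.16, 7.79 and 6.84 in knockouts, with its highest value on knockout 2. *Camp*, a granule peptide, passed the 2-fold thresholds (3.54% of all genes) with a difference of 1.13 (limma adjusted p = 0.128). That difference lay between 0.32 and 1.22 over 6 scalings. *S100a8* was well above background on 1 control and 1 knockout array, *S100a9* on 2 and 1, and *Ngp* on none. Of 9 T cell genes 7 were tested, with a median difference of 0.60 and a summed level of 9.09 to 15.0 against 13.8 to 17.4. Of the 7, 2 passed the 2-fold thresholds (3.54% of all genes), both higher. *Thy1* was higher by 2.13 in log2 (4.37-fold, limma adjusted p = 0.133). *Cd3d*, a chain of the T cell receptor complex, was higher by 1.41 with overlapping groups (2.65-fold, limma adjusted p = 0.189). With normexp and quantile normalization the difference was 0.89 for *Thy1* and 0.59 for *Cd3d*, the only scaling that left them under 2-fold. Both kept their sign under the 5 other scalings. A further T cell gene reached an unadjusted p of at most 0.05, *Cd3e*, with a difference of 0.60. At that p 3 of the 7 were higher, as 11.5% of all genes were. Of the 7, 6 were higher, where 39.8% of all genes were, and 1 lower, *Cd3g*, another chain of that complex (-0.28). *Cd8a* and *Cd8b1* were each detected above background on 1 knockout array alone. Of 5 mast cell genes 3 were tested, with a median of -1.27, which was -0.69 with normexp and quantile normalization and -0.26 with normexp and the 75th percentile, and a summed level of 0.528 to 3.44 against 0.620 to 0.845. *Mcpt4*, a mast cell protease, passed the 2-fold thresholds (-2.01, adjusted p = 0.203) with overlapping groups, and was -0.65 with normexp and the 75th percentile. It and *Cpa3* were well above background on only 1 and 2 of the 3 knockout arrays, so the size of their differences is not resolved. Of 6 NK cell genes 2 were tested, with a median of 0.80, which was 0.12 with normexp and quantile normalization, and a summed level of 0.580 to 0.711 against 0.712 to 1.08, and *Ncr1*, *Klrb1c* and *Klrd1* were above background on no array. The part of such cells in the ligand and TWEAK signals was not tested.

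The genes that act below the receptors showed small differences. Of 16 listed genes of BAFF receptor signalling 14 were tested, and 0 had an adjusted p under 0.05 (0.0657% of all genes), by limma or by the methods' t-test, and 0 passed the 2-fold thresholds (3.54% of all genes). At an unadjusted p of at most 0.05, 1 was higher (11.5% of all genes) and 1 was lower (13% of all genes), and the median difference was -0.17, against -0.12 over all genes. Under the 5 other scalings the median lay between -0.35 and -0.00. *Traf3*, the adaptor that holds NIK down until BAFF-R is engaged, stood at 4.77, 4.48 and 4.65 in controls and 4.16, 3.92 and 4.36 in knockouts. All knockout arrays lay lower, by -0.49 in log2 (1.40-fold, SE 0.17, limma adjusted p = 0.157), and the sign held under the 5 other scalings.

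*Nfkb1*, the precursor of p50, stood at 1.64, 1.78 and 1.64 in controls and 2.27, 1.97 and 2.09 in knockouts at its brighter probe. This was 0.42 higher in log2 without overlap (adjusted p = 0.158), but its dimmer probe was lower by 0.52 without overlap (log2 difference -0.52, adjusted p = 0.179), so the gene had no settled direction. In the core of the alternative pathway, *Map3k14*, which encodes NIK, had a log2 difference of -0.17 at its brighter probe and of 0.36 at its dimmer probe, with overlapping groups at both. *Nfkb2* had a difference of 0.21 and *Relb* of -0.02. *Traf2*, the partner of TRAF3, had a difference of -0.20 at its brighter probe (limma adjusted p = 0.398), where all knockout arrays lay below all control arrays, and of -0.27 with overlap at its dimmer probe. At the brighter probes, *Traf2* alone of these 4 genes kept its sign under the 5 other scalings. *Rel* was at background on all arrays, and *Camlg*, whose product binds TACI, had no probe of that name.

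Among targets of BAFF in survival and maturation, 9 of 11 listed genes were tested, 0 had an adjusted p under 0.05 (0.0657% of all genes) by limma or by the methods' t-test, and 2 were higher at an unadjusted p of at most 0.05 (11.5% of all genes). The median difference was 0.18, and it was -0.13 with normexp and the 75th percentile. *Icosl* encodes the ligand of the T cell receptor ICOS, whose level on B cells is set in part by BAFF-R signals, a link not tested here. It was the 1 gene of this list past the 2-fold thresholds (3.54% of all genes). It stood at -0.07, -1.27 and -0.25 in controls and at 1.36, 0.69 and 0.90 in knockouts. The groups were well apart, with a log2 difference of 1.51 (2.86-fold higher, SE 0.34, limma adjusted p = 0.101), and it lay between 1.11 and 1.61 over 6 scalings. *Fcer2a* (CD23), a marker of mature B2 cells, had a log2 difference of 0.61 (limma adjusted p = 0.182) with overlapping groups and was well above background on 2 of 3 knockout arrays.

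The survival genes that BAFF is known to sustain did not pass the test. The log2 difference was 0.11 for *Bcl2*, -0.11 for *Mcl1*, -0.09 for *Bcl2l1* (Bcl-xL) and -0.18 for *Pim2*, a survival kinase. *Bcl2l11*, the pro-apoptotic opponent Bim, had a difference of 0.24, and *Cr2* (CD21), a marker of marginal zone and B2 cells, had 0.24 at its brighter probe and 0.62 at its dimmer probe (adjusted p = 0.236). *Bcl2a1d*, which shares sequence with near-identical copies and so is uncertain, had 0.18. The arrays overlapped between genotypes for each of these genes.

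None of the genes that process the ligands or shed the receptors passed the test. Of 11 listed 10 were tested, 0 had an adjusted p under 0.05 by limma or by the methods' t-test, and 0 had an unadjusted p of at most 0.05. Of all genes, 0.0657% passed the adjusted p, and 11.5% were higher and 13% lower at the unadjusted p. Leaving out *Sdc1*, which no knockout array measured, 7 of 9 were lower and 2 higher, where 39.8% of all genes were higher. Their median difference was -0.28, against -0.12 over all genes, and it lay between -0.37 and -0.09 under the 5 other scalings. *Adam10*, the protease that sheds TACI, stood at 4.08, 3.70 and 3.98 in controls and at 3.70, 3.30 and 3.72 in knockouts. Its difference was -0.35 in log2 (SE 0.19, adjusted p = 0.274), with overlapping groups. γ-Secretase, which releases BCMA, was read through its subunits, among which *Aph1a* had a log2 difference of -0.35 without overlap (adjusted p = 0.22), although its other probe differed by -0.01. *Furin*, which cleaves BAFF and APRIL, had a difference of -0.18. *Adam17*, which sheds BAFF-R, had -0.52 at its brighter probe (adjusted p = 0.206) and 0.27 at its dimmer probe.

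**Figure D4:**
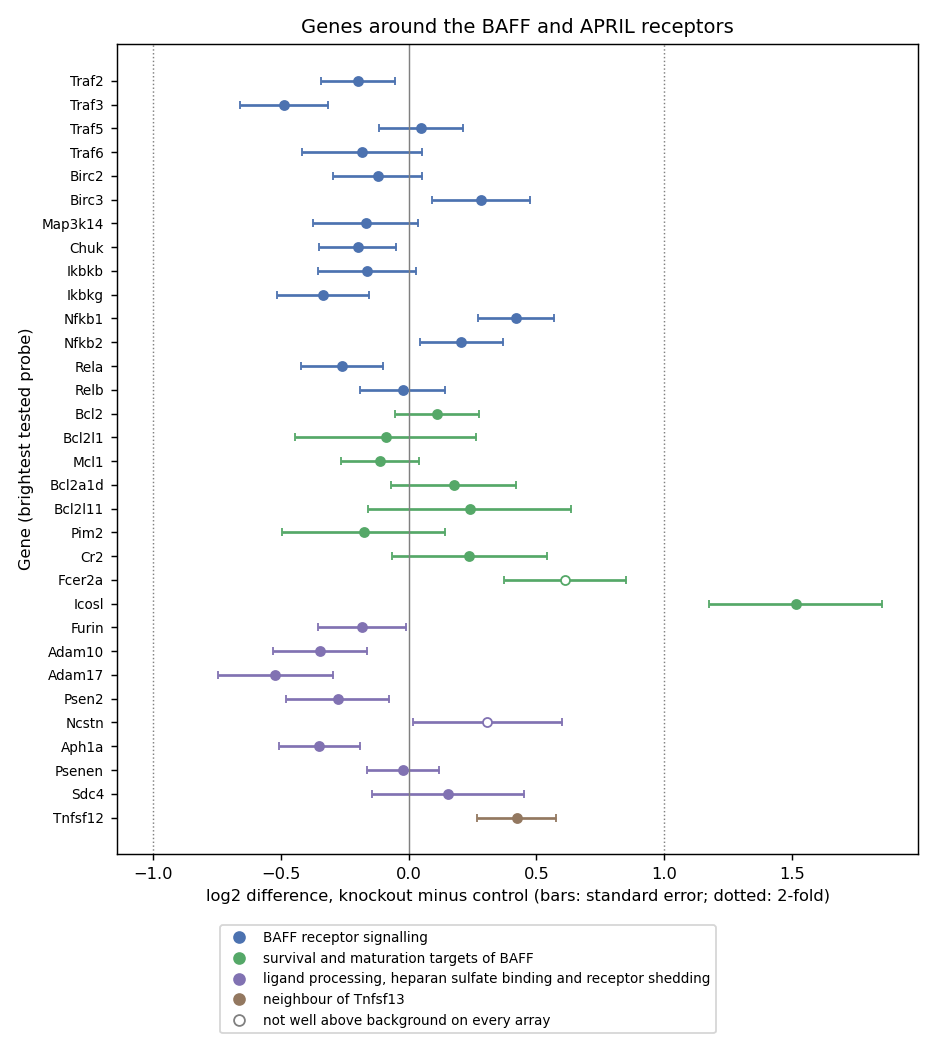
Log2 difference, knockout minus control (horizontal axis), of the tested genes of the BAFF and APRIL pathway (vertical axis), each by its brightest tested probe; bars are standard errors and dotted lines mark 2-fold. Open points lack the mark of well above background on some array, 1 gene is not shown, and *Sdc1* is left out because no knockout array measured it. *Icosl*, at 1.51, is the only point beyond 2-fold.

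The receptors were also compared with each other and with the rest of the array over the 6 arrays, as a description, because arrays of the same genotype share their differences. The brightest probes of TACI and BAFF-R followed each other with a Pearson r of 0.60, and the BAFF-R probes at bases 91 and 1817 with -0.28. Over all 6 pairs of a TACI with a BAFF-R probe, r lay between -0.72 (bases 2451 and 91) and 0.61 (bases 408 and 1817). Over 10839 genes read by their brightest probe, *Med7*, a Mediator subunit, *Sh3bgrl* and *Snupn*, which encodes snurportin, were most like TACI (r of 0.997, 0.995 and 0.992), and 187 genes exceeded 0.95. *Lyl1*, a haematopoietic transcription factor, *Tk1*, the thymidine kinase of dividing cells, and *Cd83*, a B cell activation marker, were most like BAFF-R (r of 0.989, 0.989 and 0.989), and 20 genes exceeded 0.95.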

How the data were processed

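B1a cells were sorted by the authors, and labelled RNA was hybridized to 6 Agilent arrays. Feature Extraction 10.7.1.1, per the submitters' processing notes, gave the deposited intensity of each spot, with local background subtracted on the array and no scaling between arrays. The authors also deposited a table of log2 values whose columns share nearly the same 75th percentile (7.237 to 7.238); it served as an alternative.

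From the intensities, log2 was taken and the 75th percentile over 59305 non-control spots subtracted. Outlier spots (163 to 251 per array) were dropped, no spot was saturated, and repeated spots were averaged. Testing required that the 3 arrays of 1 genotype or the other all mark a probe as well above background, with values on 2 or more arrays of each genotype. The comparison used limma 3.58.1 (lmFit, eBayes; R 4.3.3) without covariates, with Benjamini-Hochberg adjustment over 24751 probes at 0.05; genes of lists were read by their brightest tested probe. Alternatives covered normalization, background, filters, the test and left-out arrays. Named were the receptors and ligands, the pathway genes, the deleted genes, the 3 genes most like each receptor, and markers that moved with a result. Members, lists and tests were chosen with earlier results of these data known. The fit was tested on simulated data. The labels name the arrays replicates of a genotype without naming the mice of each, so p-values measure the spread between these samples, which may be technical, and 3 arrays per genotype limit the precision. A few single-gene values are not reported here. Coordinates are those of the files (mm9).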

Additional observations from a re-analysis of the deposited data

How the results depend on the processing

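The difference of *Tnfrsf13c* at base 91 kept its sign and stayed short of the threshold in all 18 settings run (0.22 to 0.49; 0.32 to 0.47 with 1 array left out). That of *Tnfrsf13b* at base 2451 kept its sign (-0.78 to -0.19; -0.61 to -0.27 with 1 array left out) and passed with normexp and the 75th percentile alone (-0.78, adjusted p = 0.0165), where 9327 of all probes passed against 20. At base 408 of *Tnfrsf13b* that setting turned the sign (-0.20), and with 1 array left out the values lay between 0.02 and 0.11. At base 175 of *Tnfrsf13b* the sign turned with array weights (0.14), and with 1 array left out the values lay between -0.25 and 0.055, the sign turning without control 2. At base 1817 of *Tnfrsf13c* it turned with quantile normalization (0.13), normexp with quantile normalization (0.13), the median of detected probes (0.050), the deposited log2 table (0.13) and array weights (0.030), and with 1 array left out the values lay between -0.18 and 0.078, the sign turning without control 1 and without knockout 2 (0.0063).

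Receptor and ligand probes with adjusted p under 0.05 numbered 1 with normexp and the 75th percentile and 0 otherwise. For BAFF receptor signalling the count rose from 0 to 3 with the normexp setting just named and to 2 by array weights. For targets of BAFF it rose from 0 to 2 with each of these and to 1 with the trend and robust fit. For processing and shedding it rose from 0 to 5 with normexp and the 75th percentile. Genes of that list past 2-fold rose from 0 to 1 with quantile normalization, the deposited table, the trend and robust fit and array weights. With 1 array left out they ranged from 0 to 1 (1 without control 2 and without knockout 1). With quantile normalization, the deposited table and the trend and robust fit, the gene was *Sdc1*, which no knockout array measured. Over all probes, those past 2-fold numbered 899, but 18980 without the filter on dim probes, 189 and 233 with normexp, 591 with the filter on all 6 arrays and 1581 without knockout 3. Those with adjusted p under 0.05 numbered 20, but 6 with quantile normalization, 60 with normexp and quantile normalization, 8 with the median of detected probes, 6 for the deposited table, 2 without the filter, 94 with the filter on all 6 arrays, 7 with 1 probe per gene, 1 by the methods' t-test, 980 with the trend and robust fit, 3998 with array weights and 136 without knockout 3, with 2 to 17 without the other arrays. The ratios of upstream to downstream probe, added after the data were seen, kept their sign in all 12 settings each (0.38 to 0.65 for bases 408 and 2451 and 0.24 to 0.69 for bases 175 and 2451 of *Tnfrsf13b*, and 0.23 to 0.58 for *Tnfrsf13c*).

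Same-numbered arrays correlated by 0.18, 0.06 and 0.12 in their deviations, and each array's best match was its own number. The main fit did not take the numbers as pairs. The labels do not say whether same-numbered arrays were processed together. With the replicate block, *Tnfrsf13b* at base 2451 had an adjusted p of 0.159 and *Tnfrsf13c* at base 91 of 0.158, and over all probes 1 passed the adjusted p and 902 the 2-fold thresholds. The cause of these dependences was not tested. BCMA, BAFF and the APRIL probe at base 2175 are limited by signal over background.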
